A study of Mus musculus with 2 samples.

Results

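The genes of the proteasome were examined in 2 RNA libraries from mouse cerebral cortex. Members were the protein-coding genes whose symbol begins with Psma, Psmb, Psmc, Psmd, Psme, Psmf or Psmg and a digit, which gave 50 of the 43346 genes in the tables. Of these, 48 encode known subunits, assembly chaperones, activators or an inhibitor of the proteasome. The other two, Psmc3ip and Psme2b, match by name only: Psmc3ip encodes a meiotic recombination factor, and Psme2b shares most of its sequence with the activator gene Psme2. Each library came from a pool of 50 layer 5 pyramidal neurons taken by laser capture from wild-type male mice aged 8 months, and there was 1 group with no treatment or second genotype. The labels give the strain as B6NCrl, C57Bl6 or C57Bl5 in different fields. They call the libraries biological replicates 1 and 2 but give both the same donor identifier, so the spread between them may be technical.

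The proteasome degrades proteins that carry ubiquitin chains. Its 20S core is a barrel of outer alpha rings and inner beta rings, and the catalytic sites lie on the beta 1, beta 2 and beta 5 subunits. The 19S regulatory particle caps the barrel: a ring of ATPases unfolds the substrate, a base binds ubiquitin, and a lid removes the ubiquitin chain. Interferon can exchange the constitutive catalytic subunits for the immune subunits encoded by Psmb9, Psmb10 and Psmb8, which shifts the peptides made for MHC class I presentation. In neurons the proteasome is known for protein turnover at synapses and for its link to protein aggregation.

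Levels are given as TPM, a transcript abundance scaled by transcript length that may be compared between genes, with the mean ± SD over the libraries. Paired values are in the order replicate 1, replicate 2. The gene counts summed to 23137706 estimated reads in replicate 1 and 26460503 in replicate 2. Members held 0.732% and 0.720% of these reads. The layer 5 markers Rbp4, Crym, Fezf2 and Bcl11b and the glutamatergic markers Nrgn, Neurod6, Camk2a and Slc17a7 were above 10 TPM in each library. Markers of other cells were present too: 7 microglial genes summed to 133 and 46.8 TPM, and 5 GABAergic genes to 3342 and 1289 TPM, against 569 and 761 TPM for the glutamatergic list. Astrocyte markers summed to 326 and 369 TPM, oligodendrocyte markers to 390 and 499 TPM and erythroid markers to 6.36 and 383 TPM. The part of these cells in the proteasome gene levels was not tested. No test was run, because the smallest two-sided exact p that 2 libraries allow is 0.5. In pooled cells, fewer cells of a type and less RNA per cell cannot be told apart.

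Nearly all proteasome genes were expressed. At least 1 TPM in each library was reached by 46 of the 50 members (92.0%), against 52.2% of 21474 protein-coding genes. At least 100 TPM in each library was reached by 27 members (54.0%), against 5.51% of protein-coding genes. Medians were 123 and 122 TPM over members, and 2.02 and 1.84 TPM over protein-coding genes. All 14 constitutive genes of the 20S core and all 17 genes of the 19S particle within the symbol rule lay above 35 TPM in each library. The counts of 19S and lid genes leave out Sem1 and Adrm1, whose symbols lie outside the rule. Adrm1 stood at 60.0 and 69.5 TPM. The exceptions below 1 TPM were Psma8, Psmb11, Psme2b and, in replicate 2, Psmb9.

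**Figure D1:**
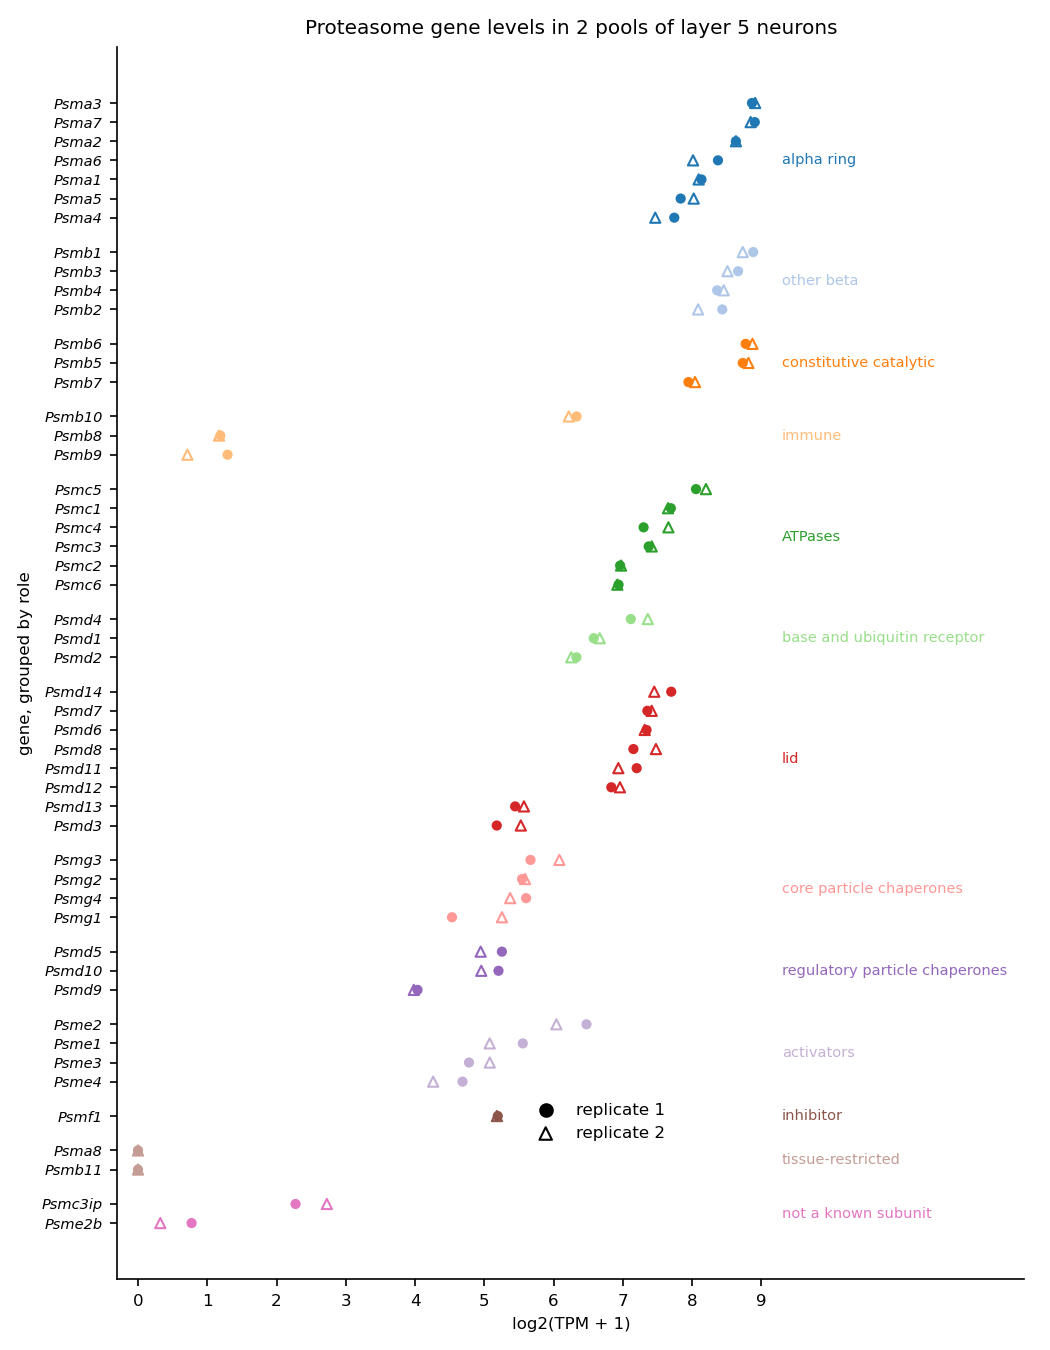
Level of each of the 50 proteasome genes as log2(TPM + 1), grouped by role, with filled circles for replicate 1 and open triangles for replicate 2. The core genes sit at the right, Psmb8 and Psmb9 lie far to the left of the other subunits, and Psma8 and Psmb11 are at 0.

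The alpha ring, which gates entry to the core, had high and similar levels. The medians over its 7 genes were 331 and 273 TPM. Psma3 had the highest mean, at 466 and 481 TPM (473 ± 10.6, SD, n = 2), followed by Psma7 at 479 and 459 TPM (469 ± 13.7). Psma4 was the lowest at 213 and 176 TPM (195 ± 26.3). The highest gene exceeded Psma4 by 2.24-fold in replicate 1, where it was Psma7, and by 2.73-fold in replicate 2, where it was Psma3. These levels count all transcripts of a gene. Over transcripts annotated as protein-coding alone, in replicate 1, Psma3 was the lowest of the 7 at 100 TPM, below Psma4 at 212 TPM.

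The 4 beta subunits without catalytic activity were more closely grouped, with the highest over the lowest at 1.44-fold and 1.57-fold. Their medians were 375 and 357 TPM. Psmb1 stood highest at 471 and 424 TPM (448 ± 33.2, SD, n = 2) and Psmb2 had the lowest mean, at 346 and 271 TPM (308 ± 52.6), although Psmb4 was lower in replicate 1 at 328 TPM. The catalytic genes Psmb5, Psmb6 and Psmb7 had a median of 425 and 449 TPM. The difference between catalytic and other beta medians was 0.26 ± 0.10 on the log2(TPM + 1) scale.

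Each of the 3 constitutive catalytic genes exceeded its immune counterpart in both libraries, but by very different amounts. Psmb6, the beta 1 subunit with caspase-like activity (chromosome 11, 70525367 to 70527858), stood at 437 and 468 TPM (452 ± 21.7, SD, n = 2). Its immune counterpart Psmb9 (chromosome 17, 34181987 to 34187764) stood at 1.45 and 0.64 TPM (1.045 ± 0.57). Psmb6 was therefore 301-fold higher in replicate 1 and 731-fold higher in replicate 2.

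At beta 5, the chymotrypsin-like site, the gap was of the same order. Psmb5 (chromosome 14, 54614119 to 54618022) stood at 425 and 449 TPM (437 ± 17.4, SD, n = 2). Psmb8 (chromosome 17, 34197721 to 34201454) stood at 1.28 and 1.25 TPM (1.27 ± 0.02). These values rest on 36 and 24 estimated reads and on length entries of 1510 and 957 bases. The small SD therefore does not show the counting error. Psmb5 was 332-fold higher in replicate 1 and 359-fold higher in replicate 2.

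At beta 2, the trypsin-like site, the immune gene was well expressed. Psmb7 (chromosome 2, 38588036 to 38644087) reached 246 and 263 TPM (254 ± 11.9, SD, n = 2), and Psmb10 (chromosome 8, 105935735 to 105938444) reached 79.6 and 73.6 TPM (76.6 ± 4.29). Psmb7 was 3.09-fold higher in replicate 1 and 3.57-fold higher in replicate 2. Psmb10 held 24.5% and 21.9% of the TPM of its pair, whereas Psmb9 held 0.331% and 0.137% and Psmb8 0.301% and 0.278% of theirs. On the log2(TPM + 1) scale the constitutive minus immune difference was 1.72 ± 0.15 at beta 2, against 7.82 ± 0.48 at beta 1 and 7.59 ± 0.07 at beta 5. The median of the 3 constitutive genes exceeded that of the 3 immune genes by 7.54 ± 0.14.

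**Figure D2:**
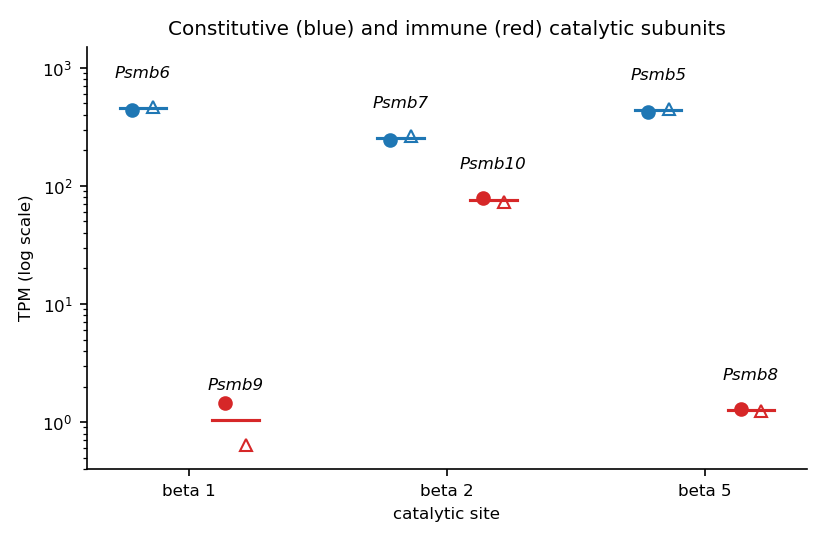
TPM of the constitutive (blue) and immune (red) gene of each catalytic site on a log axis, with filled circles for replicate 1, open triangles for replicate 2 and lines at the mean of the libraries. Psmb10 sits at 76.6 TPM, while Psmb9 and Psmb8 sit near 1 TPM.

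The 3 immune genes therefore did not share one level. Psmb10 was 62.2-fold and 58.9-fold above Psmb8, and 54.9-fold and 115-fold above Psmb9. In estimated reads, Psmb10 had 1865 and 1929, Psmb8 had 36 and 24, and Psmb9 had 35 and 18. The 95% exact Poisson intervals of the Psmb9 reads were 24.4 to 48.7 in replicate 1 and 10.7 to 28.4 in replicate 2, and the difference between the libraries was not tested. Such intervals cover counting error only. In the transcript annotation Psmb10 shared none of its 31-base words with another gene, and no exon of another gene overlapped it. Psmb10 had a single transcript in the table of replicate 1. Psmb9 shares 212 exonic bases with the opposite-strand gene Tap1, which stood at 0.24 and 0.34 TPM.

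Markers of microglia and endothelium, cells in which immune subunits could also be expressed, were detected in the pools. All 7 microglial markers reached 1 TPM in replicate 1 and 6 in both libraries. None was at 0, and their levels ran from 3.32 to 39.4 TPM in replicate 1 and from 0.73 to 16.4 TPM in replicate 2. The microglial sum was higher in replicate 1, at 133 and 46.8 TPM. Psmb9 stood at 1.45 and 0.64 TPM, with read intervals that overlapped. Psmb8 had 36 and 24 reads, with intervals of 25.2 to 49.8 and 15.4 to 35.7 that also overlapped. It was at 1.54 and 0.92 CPM. Its near equal TPM of 1.28 and 1.25 went with a transcript length entry of 1510 bases in replicate 1 and 957 bases in replicate 2. Psmb10, with the same length entry in both, was at 79.7 and 73.7 CPM. The 5 endothelial markers summed to 106 and 93.0 TPM, with a median of 2.28 and 4.96 TPM. Itm2a, at 65.8 and 42.4 TPM, and Pecam1, the lowest at 1.07 and 0.85, were higher in replicate 1. Ly6c1, at 34.6 and 42.5 TPM, Cldn5, at 2.28 and 4.96, and Flt1, at 2.24 and 2.26, were higher in replicate 2. The part of these cells in the levels of Psmb8, Psmb9 and Psmb10 was not tested.

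Genes that work with the immune subunits in antigen presentation spanned a wide range. Of 10 such genes, 6 reached 1 TPM in each library, near the 52.2% of protein-coding genes, with a list median of 4.30 and 4.28 TPM. B2m, the light chain of MHC class I, stood at 252 and 334 TPM (293 ± 58.6, SD, n = 2), and H2-D1 at 19.6 and 38.4 TPM. The peptide transporter genes Tap1 and Tap2 had 0.24 and 0.34 TPM (Tap1) and 0.83 and 0.52 TPM (Tap2). Tap1, Tap2, Psmb8 and Psmb9 lie together within 34.3 kb of chromosome 17, in the MHC region, whereas Psmb10 lies on chromosome 8. All 4 genes of that cluster were below 1.5 TPM in each library.

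Promoter sequences are shown for the catalytic genes Psmb5, Psmb6 and Psmb10, and their relation to level was not tested. They come from RefSeq on GRCm38.p6 and run 5′ to 3′ on the gene's strand. Each holds up to 200 bases before the RefSeq start, cut where an annotated exon of the gene begins upstream of that start. Capitals mark TGACNNNGC, the core of the antioxidant response element bound by NFE2L1, the transcription factor that raises proteasome genes when degradation is impaired.
Psmb5, chr14:54618023-54618195, minus strand: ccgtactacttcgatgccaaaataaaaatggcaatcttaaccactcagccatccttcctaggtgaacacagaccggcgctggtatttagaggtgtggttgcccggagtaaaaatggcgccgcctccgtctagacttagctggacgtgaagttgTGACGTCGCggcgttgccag
Psmb6, chr11:70525157-70525356, plus strand: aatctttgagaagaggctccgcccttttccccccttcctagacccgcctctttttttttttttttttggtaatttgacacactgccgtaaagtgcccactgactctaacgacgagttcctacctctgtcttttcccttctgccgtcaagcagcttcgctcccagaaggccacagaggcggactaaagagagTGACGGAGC
Psmb10, chr8:105938445-105938592, minus strand: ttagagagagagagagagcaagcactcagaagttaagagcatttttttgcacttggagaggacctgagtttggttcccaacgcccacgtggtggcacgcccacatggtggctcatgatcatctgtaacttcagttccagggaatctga

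The motif starts 47 bases before the RefSeq start of Psmb5 and 9 bases before that of Psmb6, and the Psmb10 stretch holds none. The Psmb5 stretch of 173 bases and the Psmb10 stretch of 148 bases stop short of the RefSeq start, because the first exon in M21 begins upstream of it. Windows from 250 bases before to 50 after the start were searched on both strands for 42 of the 50 members. TGACNNNGC occurred in 6 of them (14.3%), namely Psmb5, Psmb6, Psmc6, Psmd12, Psmd9 and Psme4, against 13.99% of 27025 genes. The share of members with this motif was thus near that of all genes. The core of the interferon-stimulated response element occurred in 5 members (11.9%) against 3.99% of all genes, namely Psmb3, Psmd4, Psmd9, Psme1 and Psmg4. None of them is an immune catalytic subunit, but Psme1 is the partner of Psme2 in the interferon-responsive cap PA28. TTCNNNGAA, the gamma-activated site that STAT factors bind, occurred in 3 members (7.14%) against 9.55% of all genes: Psmb8, Psmd2 and Psmg1. The Psmb8 match begins 97 bases before the RefSeq start, in a stretch that another annotated Psmb8 transcript covers, and is shown with 10 bases on each side.
Psmb8, chr17:34198088-34198116, plus strand: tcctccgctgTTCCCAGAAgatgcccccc

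A match of letters is a description and not a binding site. No entry for Psmb7 was used, and the windows of Psmb9 held none of these motifs.

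The ATPase ring had lower levels than the core. The medians over its 6 genes were 161 and 185 TPM. Psmc5 was the highest at 265 and 293 TPM (279 ± 19.8, SD, n = 2), and Psmc6 the lowest at 122 and 120 TPM (121 ± 1.06). The base subunits Psmd1 and Psmd2, the largest scaffold proteins of the particle, had 94.7 and 101 TPM (Psmd1) and 79.5 and 75.4 TPM (Psmd2). Psmd4, a ubiquitin receptor, stood at 138 and 163 TPM (151 ± 18.2).

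The lid held the widest range among the 19S groups. The medians over its 8 genes within the symbol rule were 144 and 141 TPM. Psmd14, the enzyme that cuts off the ubiquitin chain, had the highest mean, at 207 and 174 TPM (191 ± 23.0, SD, n = 2), although Psmd8 was higher in replicate 2 at 177 TPM. Its inactive partner Psmd7 stood at 163 and 170 TPM. Psmd3 was the lowest at 35.3 and 45.1 TPM (40.2 ± 6.98), next to Psmd13 at 42.6 and 46.6 TPM (44.6 ± 2.84). The other 6 lid genes lay between 113 and 207 TPM in replicate 1 and between 121 and 177 TPM in replicate 2, so Psmd3 and Psmd13 stood apart from them in each library. Psmd13 shares 342 exonic bases with the opposite-strand gene Sirt3, which stood at 91.7 and 79.9 TPM. The part of shared reads in the Psmd13 values was not tested.

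Core genes stood above regulatory particle genes. Medians were 371 and 357 TPM over the 14 core genes and 141 and 158 TPM over the 17 particle genes. The difference of medians was 1.27 ± 0.15 on the log2(TPM + 1) scale (SD, n = 2). The ranges overlapped: Psmc5 lay above Psma4 in each library. Core transcripts were also shorter, with a median length of 989 bases against 1517 bases. Across the 31 genes, level fell with length (Spearman rho = -0.82, Pearson r = -0.78 on log2 values), where genes share libraries and are not replicates. Within the 14 core genes rho was -0.37 and within the 17 particle genes -0.47, and across 6521 protein-coding genes at mean TPM of at least 10 it was -0.41. CPM, a count scaled by depth and not divided by length, gave a smaller difference of 0.49 ± 0.06 in the same direction.

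**Figure D3:**
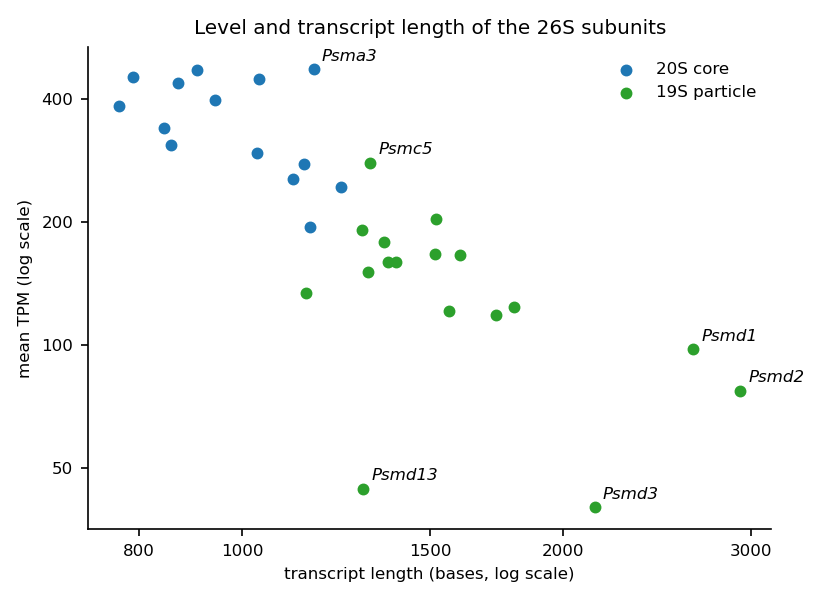
Mean TPM over the libraries against transcript length, both on log axes, for the 14 genes of the 20S core (blue) and the 17 of the 19S particle (green). Shorter transcripts have higher levels, and Psmd13 and Psmd3 lie below other genes of like length.

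Assembly chaperones and activators within the symbol rule had lower medians than the 31 subunit genes. The ranges overlapped: Psmg3 lay above Psmd3 and Psmd13 in each library. The 7 chaperone genes had a median of 37.2 TPM in each library, 2.42 ± 0.03 below the 31 subunit genes on the log2(TPM + 1) scale (SD, n = 2). Psmg3, part of a dimer that helps to build the alpha ring, was the highest of the core chaperones at 49.8 and 66.9 TPM (58.3 ± 12.04). Psmg1 was the lowest at 22.2 and 37.2 TPM (29.7 ± 10.6). Of the chaperones that prepare the regulatory particle, Psmd5 stood at 37.2 and 29.9 TPM, Psmd10 at 35.9 and 30.1, and Psmd9 lowest at 15.4 and 14.8. Pomp, which completes core maturation and lies outside the symbol rule, was far higher at 622 and 607 TPM (614 ± 10.9).

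The activators, which open the core without ATP, had a median of 36.3 and 32.8 TPM. Psme2, a subunit of the interferon-responsive cap PA28, was the highest at 88.0 and 64.9 TPM (76.4 ± 16.4, SD, n = 2). Its partner Psme1 stood at 46.1 and 32.8 TPM (39.4 ± 9.38). The nuclear activator Psme3 stood at 26.5 and 32.8 TPM, and Psme4, the gene of PA200, was the lowest at 24.7 and 18.2 TPM (21.5 ± 4.63). The inhibitor gene Psmf1 stood at 35.6 and 35.3 TPM.

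The tissue-restricted core genes were not detected. Psma8, known from male germ cells, and Psmb11, known from thymic epithelium, had 0 reads in each library. A count of 0 allows up to 3 reads, or 0.09 and 0.08 TPM for Psma8 and 0.04 and 0.03 TPM for Psmb11. Psme2b stood at 0.71 and 0.25 TPM, and 78.4% of its 31-base words also occur in other genes, chiefly Psme2. Psmc3ip stood at 3.84 and 5.62 TPM. It shares 385 exonic bases with the opposite-strand gene Mlx, which stood at 67.8 and 73.2 TPM.

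The ratios of the members between the pools were set beside those of all genes. Of the 44 members at mean CPM of at least 10, 0 were 2-fold or more apart, against 4.46% of all 9190 genes at that minimum (2.6% higher in replicate 1 and 1.86% higher in replicate 2). Such a ratio sets 1 library against another and has no replicate check. The 9190 genes were not matched to the members in level, and a share of 4.46% would be few of 44 genes. The largest ratio was that of Psmg1, with a log2 replicate 1 over replicate 2 ratio of -0.72, or 1.65-fold higher in replicate 2. Psmd13 followed at -0.62, and the highest toward replicate 1 was Psme1 at 0.50. These are the extremes of the members: at a limit of 1.5-fold, 2 members passed (4.55%), against 16.9% of all genes. The members' median log2 ratio was -0.01 and that of all 9190 genes -0.03, with 21 members higher in replicate 1 and 23 in replicate 2. With spike-in totals as the scale, the median of all genes became 0.33 and that of the members 0.35, which put 39 of 44 higher in replicate 1.

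**Figure D4:**
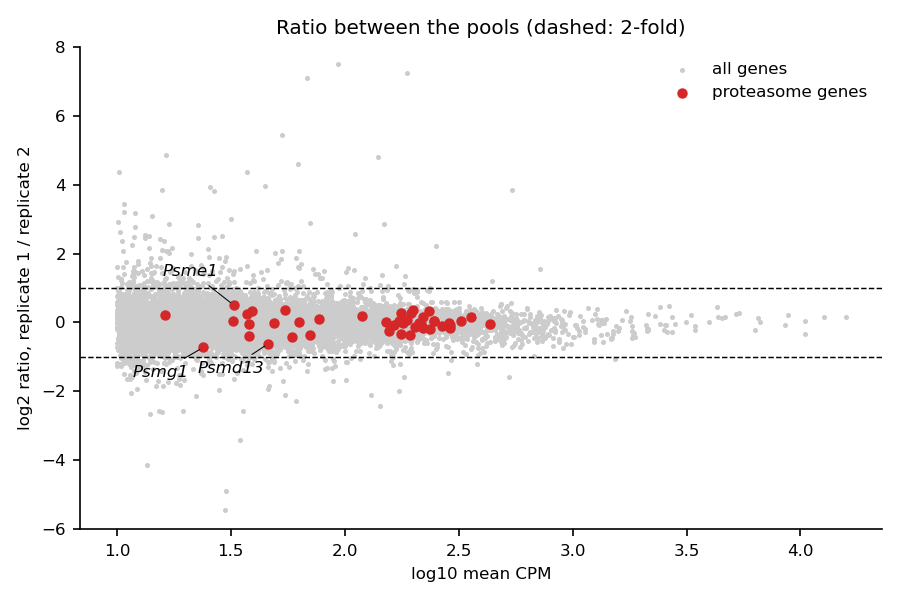
Log2 ratio of CPM, replicate 1 over replicate 2, against log10 mean CPM for all 9190 genes at mean CPM of at least 10 (grey) and the 44 proteasome genes among them (red). All red points lie between the dashed 2-fold lines, and Psmg1 lies lowest at -0.72.

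The transcripts behind a gene's level differed among members. In replicate 1, for which a transcript table was used, transcripts annotated as protein-coding held at least 90% of the gene's TPM in 34 of the 44 members at TPM of at least 10 (77.3%), against 65.5% of 6519 protein-coding genes at that level. They held less than 50% in 4 members (9.09%), against 13.0% of those genes. Psma3, the alpha gene with the highest mean, had 21.6% in protein-coding transcripts, and its leading transcript, annotated for nonsense-mediated decay, held 40.2%. In Psmb4 a transcript with a retained intron held 48.8% and the protein-coding one 42.2%. In Psmd13 and Psme4 the leading transcript was protein-coding but all such transcripts together held 41.8% and 48.2%. A further 32.4% of Psmd13 lay in transcripts that are not in M21 and have no type here, so its protein-coding share may be higher. The difference between core and particle medians over protein-coding transcripts alone was 1.28 in replicate 1. These shares are estimates from reads that overlapping transcripts have in common.

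**Figure D5:**
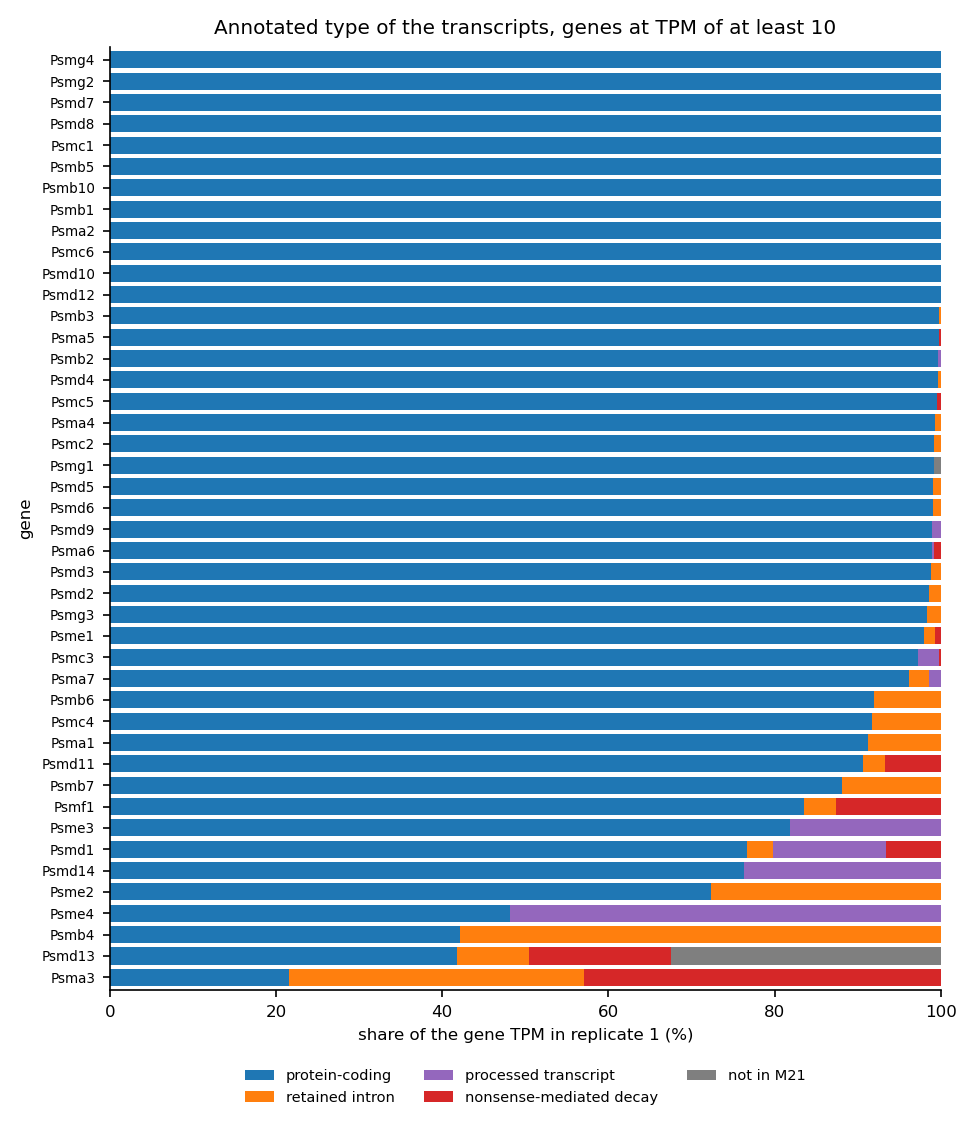
Share of each gene's TPM in replicate 1, in percent, held by transcripts of each annotated type, for the 44 members at TPM of at least 10. Most bars are blue (protein-coding) over their whole length, and the 4 at the bottom are under 50% blue.

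The mean transcript length in the gene tables, weighted by transcript abundance, showed where this mix differed between the pools. It changed by at least 10% in 2 of 44 members (4.55%), against 15.7% of all genes. For Psmd13 it rose from 1093 to 1505 bases (37.6%) and for Psme4 from 3078 to 4139 bases (34.5%). In Psmd13 this went with 847 and 1467 estimated reads but with 42.6 and 46.6 TPM, so the lengthwise scaled levels were closer than the reads.

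Processed pseudogenes share sequence with several members. For Psmb5, 71.7% of the 31-base words occur in other genes, chiefly the pseudogene Gm3375, which has no entry among the quantified genes. For Psma5 the share was 61.0%, chiefly Gm8394, which stood at 1.56 and 2.17 TPM. The posterior SD of the read count, a measure of ambiguous assignment, stayed at or below 0.26% of the count in the 43 members at mean CPM of at least 10 other than Psma3, where it was 1.13%. Gm13835, a pseudogene with 16.2% of the Psma3 words, stood at 155 and 87.1 TPM. By the posterior SD, the level of Psma3 was less certain than that of the other core genes. That SD cannot register words shared with a gene that was not quantified, such as Gm3375 for Psmb5.

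Other genes of the pathway had these levels. Of 10 partners outside the symbol rule, all were above 1 TPM in both, and the list medians were 91.9 and 104 TPM. After Pomp, the highest by mean were the deubiquitinase Usp14 at 215 and 219 TPM and Sem1, a small lid subunit, at 159 and 125 TPM. Uchl5, the second proteasome-bound deubiquitinase, differed most, at 98.1 and 144 TPM. Among 9 shuttle and segregase genes, with medians of 40.5 and 45.7 TPM, the highest by mean were the cofactor Nsfl1c at 123 and 120 TPM, the segregase Vcp at 89.4 and 97.0 and its cofactor Ufd1 at 54.2 and 64.5. Of the 6 ubiquitin and ubiquitin-activation genes, Ubb stood at 3341 and 3334 TPM and Rps27a at 442 and 374. Among 7 genes of transcription control, the highest were Nfe2l1 at 47.3 and 58.0 TPM, Ngly1, the enzyme that removes sugar chains from NFE2L1, at 14.5 and 14.4, and Stat3 at 6.38 and 6.57. In the lists of partners, shuttles, ubiquitin, transcription control and antigen presentation, H2-D1 was the only gene above the CPM minimum to pass 2-fold, being higher in replicate 2 by 2.10-fold.

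The cytosolic chaperonin CCT, another large complex of fixed composition, served for comparison. Its 8 genes had a median of 135 and 137 TPM, 0.59 ± 0.05 below the median of the 31 proteasome subunit genes on the log2(TPM + 1) scale (SD, n = 2). Its highest genes by mean were Tcp1 at 185 and 188 TPM, Cct8 at 173 and 180 (176 ± 5.28, SD, n = 2) and Cct3 at 176 and 144. The highest CCT gene exceeded the lowest 2.51-fold and 2.77-fold, which is close to the range within the 20S core, at 2.24-fold and 2.73-fold. In the 19S particle the range was 7.53-fold and 6.5-fold, set by the low Psmd3.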

How the data were processed

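Each library has a deposited table of genes with the authors' expected counts, which are estimated reads per gene, not normalized, and with TPM and FPKM scaled by effective length over all entries, spike-ins included. The deposited score used here is the posterior SD of each count, and the deposited tables also give an abundance-weighted transcript length. A transcript table, used for replicate 1, gives each transcript's percent of its gene's TPM, as deposited by the authors. Build mm10 and annotation M4 are named in the text deposited with the tables. How reads were aligned and quantified, and whether strand was used, is not given in the sources used here, and overlapping genes may share reads.

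Symbols, types and coordinates came from GENCODE M21 on the same build by gene identifier without version, and 42462 of 43346 matched. Paaf1 of the partner list was not matched. Expected counts were rounded, and CPM used TMM scaling in edgeR 4.0.16 (R 4.3.3) over gene counts without spike-ins. Ratios were log2((CPM + 1)/(CPM + 1)) at mean CPM of at least 10, checked on simulated counts. The rest was done with scipy 1.17.1, numpy 2.4.6 and pandas 2.3.3 under Python 3.11.15, and plots with matplotlib 3.10.9. Alternatives included size factors from DESeq2 1.42.0. Words of 31 bases were compared on both strands of M21 transcripts.

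Members, role groups and lists were chosen with earlier results of these data known. The interferon-stimulated response element and TTCNNNGAA were added after the levels were seen. Genes named are the catalytic pairs, the highest and lowest of each role, members with no reads or a leading noncoding transcript, and the 3 highest of each related list, of which some are not reported here. Psma7, Psmd1, Psmd7, Psmd13, Psmd10, Psme3, Tap1, Tap2, Uchl5, the pseudogenes and other genes outside this rule were chosen after their values were seen.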

Additional observations from a re-analysis of the deposited data

How the results depend on the processing

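Leaving 1 library out only returns the value of the other. The difference between core and particle medians ranged from 1.17 to 1.38 in that setting. It kept its value within 1 SD with FPKM and with TPM rescaled over genes. Both multiply the TPM of a library by 1 factor, so they could hardly change this difference. It also stayed within 1 SD over protein-coding transcripts in replicate 1, and was 0.49 with CPM not divided by length. The protein-coding and CPM settings were chosen after seeing the data. The constitutive minus immune difference ranged from 7.44 to 7.64 with 1 library left out and was 8.24 with a pseudocount of 0.1 and 6.93 with CPM, and kept its direction in each. No member passed 2-fold under DESeq2 size factors, spike-in totals, library totals, a minimum of 1 CPM or none, a pseudocount of 0.1 or deposited TPM. The last 2 settings covered 44 members, without Psmb9 and Psme2b. At the lower minima the pseudocount of 1 shrinks the ratios of genes with few reads. In TPM without a pseudocount, Psmb9, at 1.45 and 0.64, and Psme2b, at 0.71 and 0.25, were more than 2-fold apart. The result therefore holds for the 44 members and was not tested for genes with few reads. The median log2 ratio of the members changed sign to 0.35 with spike-in totals, 0.027 with library totals and 0.0055 with deposited TPM. The antioxidant response element with 1 further base occurred in 4.76% of member promoters, against 3.45% of all genes, and in the window of 150 bases before to 50 after the start the shorter motif occurred in 9.52% against 10.4%. No paired analysis was possible because there is 1 group. Depth limits the comparison of Psmb8 and Psmb9 between libraries, at 18 to 36 reads each.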
